A study of Rattus norvegicus with 10 samples.

Results

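The alpha class, kappa class and microsomal glutathione transferases of rat liver are 9 genes here: Gsta1, Gsta2, Gsta3, Gsta4, Gsta5, Gstk1, Mgst1, Mgst2 and Mgst3. Their probe sets were taken by gene annotation, and 8 of the 31042 probe sets outside the manufacturer's controls belong to them. Of these, 7 carry a single gene, and 1 is shared by Gsta2 and Gsta5, so that those genes cannot be told apart and are given together. Each of the 7 genes measured alone, among 14217 genes measured alone on the array, has 1 probe set, so no second probe set checks any of them. Gstk1 belongs to the kappa class, and is neither an alpha nor a microsomal enzyme.

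Total RNA from liver was measured on 10 Affymetrix rat arrays, 1 per sample, in 2 groups of 5. All rats were female Harlan Sprague-Dawley rats gavaged with corn oil on 5 days per week for 13 weeks, per the labels. The vehicle group received corn oil alone (0 mg per kg), and the other group was given 300 mg per kg of indole-3-carbinol (I3C), which forms when broccoli and related vegetables are crushed, in corn oil. The design text of the series names a 2-year study, whereas the sample labels give 13 weeks, and neither gives the age of the rats or says which sample came from which animal, so that a p-value reflects variation among the samples as labelled. Values are log2 expression values normalised by RMA, the robust multi-array average, and a difference is the I3C mean minus the vehicle mean on that scale.

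Glutathione transferases join the thiol of glutathione to electrophiles, which makes them more soluble and ready for export. The soluble alpha class enzymes are abundant in hepatocytes, where they also reduce lipid hydroperoxides and bind bilirubin and other organic anions. The microsomal enzymes, Mgst1 to Mgst3, are an unrelated family of small membrane proteins, called MAPEG for membrane-associated proteins in eicosanoid and glutathione metabolism. The kappa enzyme lies in mitochondria and peroxisomes. Rat alpha class genes are textbook targets of NRF2, which acts through the antioxidant response element, and of the aryl hydrocarbon receptor, which acts through the xenobiotic response element and binds acid condensation products of I3C.

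The promoters are shown because 4 of the 8 probe sets rose together and 1 fell. RefSeq promoter windows on assembly GRCr8, from 250 bases before to 50 bases after a transcript start, were held for 8 of the 9 genes, Mgst2 being the gene without one, and Gsta3 had 2 starts, which gave 9 windows. They were searched on both strands for TGACNNNGC, the core of the antioxidant response element, and for GCGTG, the core of the xenobiotic response element. The antioxidant core was found in 3 of the 9 windows (Gsta1, Gsta2 and the upstream start of Gsta3), against 12.1% of 33469 rat promoter windows. The xenobiotic core was found in 4 of the 9 (Gsta2, the downstream start of Gsta3, Gsta4 and Mgst3), against 29.7% of all windows. The windows of Gsta5, Gstk1 and Mgst1 held neither. That of Gsta5 begins at chr8:87988104, inside the gene, whose RefSeq locus begins at 87985768. It therefore does not cover the bases before the first base of that locus, where cores were not searched. The downstream start of Gsta3 likewise lies inside its locus, which begins at 31154989. The loci of Gsta2 and Mgst3, on the minus strand, reach to 88077168 and 82080418. Their xenobiotic cores therefore lie inside the RefSeq locus, though before the transcript start used. A match describes letters in the reference and not a bound site, and elements farther from the start are outside these windows. The 250 bases before the start are printed for 4 genes with a core there and a probe set that passed the test. Gsta5, which shares its risen probe set with Gsta2 and held neither core, is not printed. The rise of that probe set cannot be assigned to either gene. Also not printed is the downstream start of Gsta3, which held no antioxidant core. With the cores in capitals, the printed stretches are Gsta3 at chr9:31154739-31154988 (plus strand), Gsta4 at chr8:87947015-87947264 (plus strand), Gsta2 at chr8:88077093-88077342 (minus strand) and Mgst3 at chr13:82080296-82080545 (minus strand).
Gsta3: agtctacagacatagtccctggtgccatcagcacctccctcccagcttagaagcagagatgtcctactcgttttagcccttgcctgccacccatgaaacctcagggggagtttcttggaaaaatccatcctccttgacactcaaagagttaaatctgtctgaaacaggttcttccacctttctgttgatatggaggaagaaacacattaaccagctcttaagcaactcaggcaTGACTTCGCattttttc
Gsta4: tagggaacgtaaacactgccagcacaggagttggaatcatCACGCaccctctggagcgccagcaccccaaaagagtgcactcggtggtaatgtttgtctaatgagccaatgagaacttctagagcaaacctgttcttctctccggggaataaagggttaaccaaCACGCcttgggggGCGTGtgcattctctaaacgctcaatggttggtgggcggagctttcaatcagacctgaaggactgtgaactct
Gsta2: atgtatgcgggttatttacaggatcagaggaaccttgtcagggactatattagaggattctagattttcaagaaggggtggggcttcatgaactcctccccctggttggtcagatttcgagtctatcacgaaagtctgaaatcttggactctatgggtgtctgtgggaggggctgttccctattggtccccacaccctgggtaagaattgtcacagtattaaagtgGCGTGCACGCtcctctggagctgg
Mgst3: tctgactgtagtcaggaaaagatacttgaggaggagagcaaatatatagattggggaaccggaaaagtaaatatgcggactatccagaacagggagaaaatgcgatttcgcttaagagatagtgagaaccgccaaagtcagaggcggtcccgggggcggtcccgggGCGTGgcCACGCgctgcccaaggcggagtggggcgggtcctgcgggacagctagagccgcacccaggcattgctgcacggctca

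In Gsta3 the antioxidant core lay at -17 to -9 from the start. Gsta4 held 3 xenobiotic cores, at -210, -86 and -73 by their first base. In Gsta2 a forward and a reverse xenobiotic core lay side by side at -24 to -15, without overlap. Its antioxidant core lay on the reverse strand after the start, at 37 to 45. Mgst3, the probe set that fell, also held a forward and a reverse xenobiotic core, at -84 to -80 and -77 to -73.

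**Figure D1:**
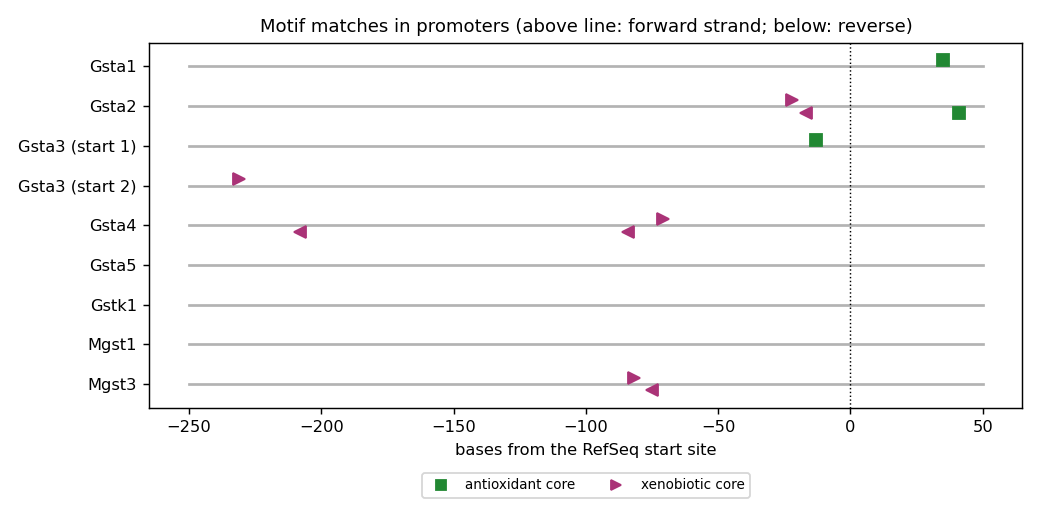
Position of antioxidant cores (squares) and xenobiotic cores (arrowheads) in the 9 RefSeq promoter windows of 8 genes, in bases from the transcript start. Marks above a line are on the gene's own strand and marks below it on the other. The 3 antioxidant cores lie between -17 and 45, and Gsta5, Gstk1 and Mgst1 carry no mark. The Gsta5 window and that of the downstream start of Gsta3 lie inside their genes. The xenobiotic cores of Gsta2 and Mgst3 lie inside the RefSeq locus, before the transcript start used.

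Gsta3 and Gsta1 are compared further because they are neighbours in the same gene cluster and gave the largest and the smallest difference among the alpha class probe sets. Their antioxidant cores lie at different distances from the RefSeq starts, before the start at -17 to -9 in Gsta3 and after it at 31 to 39 in Gsta1. Bases farther before the core are also alike in the Gsta1 window and the upstream Gsta3 window. The distances therefore depend on where each start is annotated. The antioxidant core with 10 bases on each side, capitals marking the core, was taken from chr9:31154962-31154990 (plus strand) for Gsta3 and from chr9:31216484-31216512 (minus strand) for Gsta1.
Gsta3: aactcaggcaTGACTTCGCattttttcct
Gsta1: aactcaggcaTGACTTTGCatttttcttc
Over these 29 bases 24 were identical. Counted from 1 at the 5′ end of the stretch, with the Gsta3 base first, the differences were C17T, T26C, C27T, C28T and T29C. C17T is the one inside the core, at a place where the searched motif allows any base.

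Of the 8 probe sets 4 rose in I3C livers, 1 fell and 3 did not pass the test. Over all 31042 probe sets 2.49% rose and 2.3% fell, and among the brightest 10% of probe sets, where all 8 lie, 8.82% rose and 6.8% fell. The differences of the 8 ran from -0.50 to 1.62 with a median of 0.51, beside a median of -0.0033 over all probe sets. Vehicle and I3C arrays did not overlap in 6 of the 8, against 6.5% of all probe sets. The test is limma fitted over all 31042 probe sets, with Benjamini-Hochberg adjustment; "rose" and "fell" here mean an adjusted p under 0.05. The counts of 4 and 1 held with any of the 10 arrays left out.

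**Figure D2:**
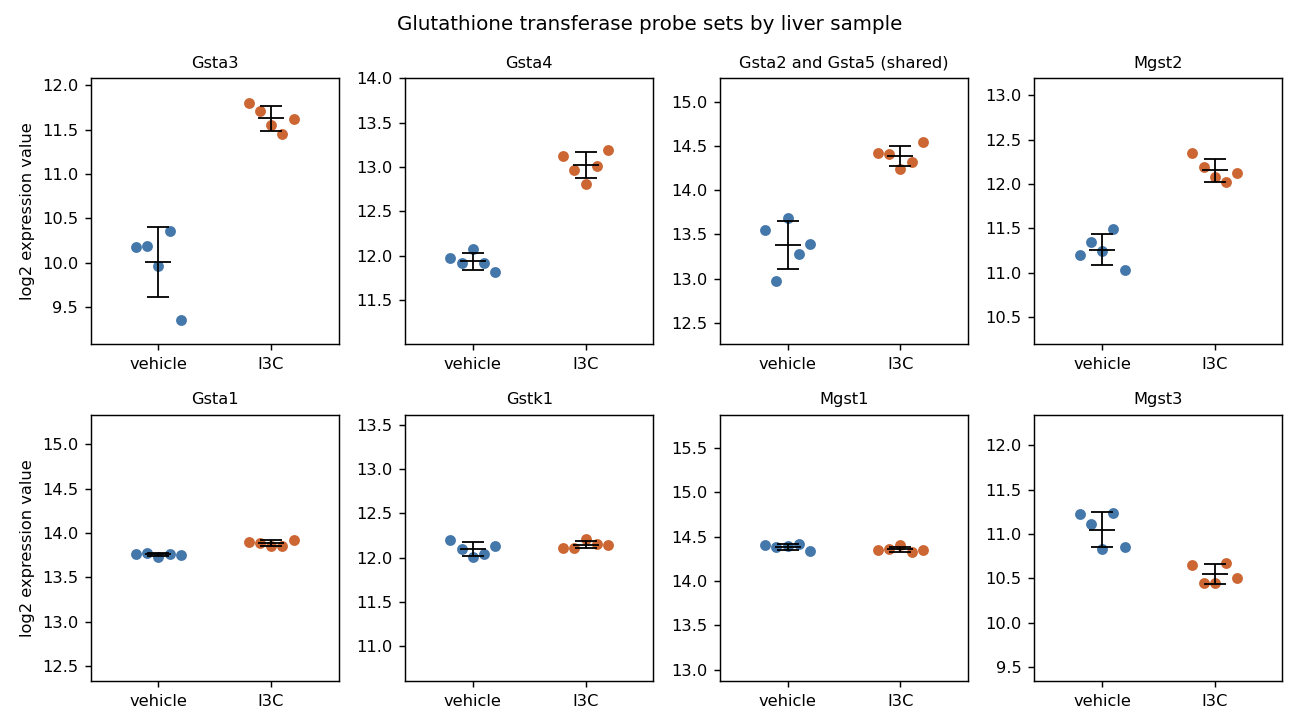
Log2 expression value of each of the 8 probe sets in the 5 vehicle and 5 I3C samples, replicates 1 to 5 from left to right in each group. Points are samples, bars are the mean and SD, and every panel spans 3 log2 units. Gsta3, Gsta4, the shared probe set of Gsta2 and Gsta5, Mgst2 and Gsta1 lie higher in all 5 I3C samples than in any vehicle sample. For Gsta1 the gap is only 0.077 and the difference did not pass the test. Mgst3 lies lower in all 5 I3C samples than in any vehicle sample.

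Among the alpha class enzymes Gsta3, the subunit with the older name Yc2, known for conjugating the epoxide of aflatoxin, had the largest difference. Its values were 10.18, 10.19, 9.96, 10.36 and 9.35 in vehicle samples 1 to 5. In I3C samples 1 to 5 they were 11.80, 11.71, 11.55, 11.45 and 11.62. The lowest I3C sample lay 1.10 above the highest vehicle sample, and vehicle 5 lay well under the other vehicle samples. The mean went from 10.01 ± 0.39 (SD, n = 5) to 11.63 ± 0.14 (SD, n = 5), a rise of 1.62 ± 0.16 (SE, limma adjusted p = 8.63e-05). This is 3.07-fold, with a 95% interval from 2.43 to 3.88, and the 57th largest difference in size of the 31042 probe sets. Without vehicle 5 the rise was 1.45 ± 0.09 (SE, limma adjusted p = 4.88e-06).

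Gsta4, which conjugates hydroxynonenal and other products of lipid peroxidation, had the smallest SE of the 4 risen probe sets. Vehicle samples 1 to 5 gave 11.97, 11.91, 12.07, 11.91 and 11.81, and I3C samples 1 to 5 gave 13.13, 12.97, 12.81, 13.01 and 13.19. The groups were separated by 0.74, more than 4 times the SD within either. Gsta4 rose by 1.08 ± 0.08 (SE, limma adjusted p = 1.16e-05), from 11.94 ± 0.10 to 13.02 ± 0.15 (SD, n = 5 each), which is 2.12-fold with a 95% interval from 1.88 to 2.39. By its p-value it stood 19th of the 31042 probe sets, ahead of Gsta3, which stood 56th.

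The probe set shared by Gsta2 and Gsta5, the Ya subunits long used to study induction by xenobiotics, is one of the brightest on the array, at the 99.8th percentile of probe sets. Its values were 13.55, 12.98, 13.68, 13.28 and 13.40 in vehicle samples 1 to 5, and 14.42, 14.41, 14.23, 14.31 and 14.55 in I3C samples 1 to 5. The vehicle samples were spread over more than the I3C samples, with vehicle 2 lowest, and the groups did not overlap. It rose by 1.01 ± 0.12 (SE, limma adjusted p = 3.36e-04), from 13.38 ± 0.27 to 14.39 ± 0.12 (SD, n = 5 each), a 2.01-fold difference with a 95% interval from 1.69 to 2.40. The highest value in the whole table is 15.1, so this probe set reached close to the top of the scale in I3C livers, where folds can be understated.

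Gsta1, the subunit with the older name Yc1, is known as the constitutive alpha form of rat liver. It gave 13.76, 13.78, 13.73, 13.77 and 13.75 in vehicle samples and 13.90, 13.89, 13.86, 13.85 and 13.93 in I3C samples. All I3C samples were higher than all vehicle samples, but by little: the gap between the groups was 0.077. The difference of 0.13 ± 0.05 (SE) did not pass (limma adjusted p = 0.239), and its 95% interval in folds ran from 1.01 to 1.18. The spread within groups was among the smallest here, with SDs of 0.016 in vehicle and 0.030 in I3C livers (n = 5 each), and limma widens so small a spread toward that of other probe sets. Without that step the adjusted p was 0.00689. The mean of 13.82 is also near the top of the scale.

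The microsomal enzymes differed from one another in direction. Mgst2, which can make leukotriene C4, gave 11.20, 11.35, 11.24, 11.49 and 11.03 in vehicle samples and 12.35, 12.19, 12.08, 12.02 and 12.12 in I3C samples. The groups were separated by 0.53, with vehicle 5 lowest. Mgst2 rose by 0.89 ± 0.09 (SE, limma adjusted p = 1.39e-04), from 11.26 ± 0.17 to 12.15 ± 0.13 (SD, n = 5 each), which is 1.86-fold with a 95% interval from 1.62 to 2.13.

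Mgst3, a microsomal enzyme with glutathione peroxidase activity, went the other way. Its values were 11.22, 11.11, 10.83, 11.24 and 10.85 in vehicle samples and 10.66, 10.45, 10.45, 10.67 and 10.50 in I3C samples. No sample of 1 group reached into the other, with a gap of 0.16, and vehicle 3 and vehicle 5 lay closest to the I3C samples. Mgst3 fell by 0.50 ± 0.10 (difference -0.50, SE, limma adjusted p = 0.0085), from 11.05 ± 0.20 to 10.55 ± 0.11 (SD, n = 5 each), a level 1.42-fold lower. The call ended when the 3' minus 5' difference of beta-actin, a measure of RNA quality, was a covariate, at -0.53 ± 0.13 (SE, limma adjusted p = 0.0505).

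Mgst1, an abundant protein of the endoplasmic reticulum and outer mitochondrial membrane of hepatocytes, gave 14.41, 14.39, 14.39, 14.42 and 14.33 in vehicle and 14.35, 14.36, 14.41, 14.33 and 14.35 in I3C samples. The groups overlapped. The difference of -0.03 ± 0.05 (SE, limma adjusted p = 0.882) had a 95% interval in folds from 0.906 to 1.06. This is the brightest of the 8 probe sets, and its sign turned when the beta-actin difference was a covariate (0.0013 ± 0.0694, SE, limma adjusted p = 0.995).

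Gstk1, the kappa enzyme, gave 12.20, 12.10, 12.00, 12.05 and 12.13 in vehicle and 12.10, 12.11, 12.21, 12.16 and 12.14 in I3C samples. The groups overlapped, although vehicle 2, 3 and 4 lay below every I3C sample. The difference of 0.05 ± 0.06 (SE, limma adjusted p = 0.782) had a 95% interval in folds from 0.948 to 1.13, so that a change as large as that of Mgst2 lies outside it.

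Whether members differed in their response was tested on the per-sample differences between probe sets, for the 6 pairs of alpha class probe sets and the 3 pairs of microsomal enzymes, by exact permutation tests over all 252 arrangements of the samples, two-sided, adjusted over the 9 pairs. The response of Gsta3 exceeded that of its neighbour Gsta1 by 1.49, that of Gsta4 exceeded Gsta1 by 0.96, and that of Gsta2 and Gsta5 exceeded Gsta1 by 0.88. Mgst2 exceeded Mgst1 by 0.92 and Mgst3 by 1.40, and Mgst1 exceeded Mgst3 by 0.48. For each of these 6 pairs the exact permutation p was 0.00794, the lowest value this design allows, and the adjusted p was 0.0119. Gsta3 also exceeded Gsta4, by 0.53 (exact permutation p = 0.0238, adjusted 0.0306). It exceeded the shared probe set by 0.61 (exact permutation p = 0.0397, adjusted 0.0446). That last call ended when any of vehicle 3, vehicle 5 or the 5 I3C samples was left out, at adjusted exact p up to 0.0982. Gsta4 and the shared probe set differed by 0.076 (exact permutation p = 0.548), a call made only without vehicle 2 (0.17, adjusted exact p = 0.0397). With the GAPDH 3' minus 5' difference, a measure of RNA quality described with the arrays, as a covariate, the excess of Gsta3 over Gsta4 was 0.17 ± 0.26 and that over the shared probe set 0.010 ± 0.321, and Gsta4 minus the shared probe set turned to -0.16 ± 0.15 (SE, least squares, no test). At that setting the other 6 pairs kept their direction, with Gsta3 over Gsta1 at 1.03 ± 0.23 and Mgst1 over Mgst3 at 0.66 ± 0.15 (SE). With the beta-actin covariate Gsta3 exceeded Gsta4 by 0.75 ± 0.20 and the shared probe set by 0.77 ± 0.32 (SE). Responses of bright probe sets can be compressed, and how far that sets these differences was not tested.

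**Figure D3:**
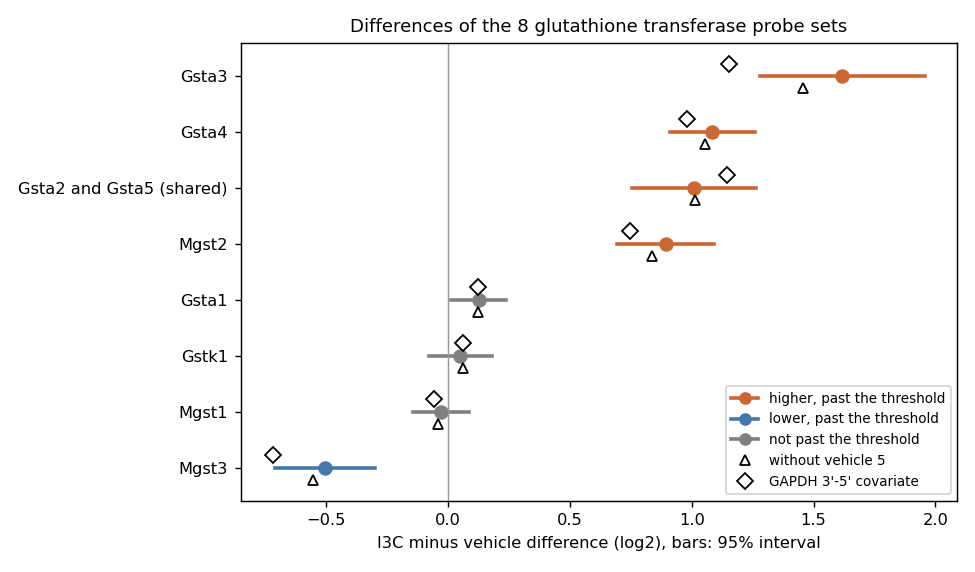
I3C minus vehicle difference (log2) of the 8 probe sets, with the 95% interval from limma over 10 arrays. Triangles show the difference without vehicle 5, and diamonds the difference with the GAPDH 3' minus 5' difference as a covariate. Gsta3 lies highest at 1.62 and Mgst3 lowest at -0.50, and all 8 keep their sign under both alternatives.

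The alpha class genes lie in 2 clusters, with Gsta4, Gsta5 and Gsta2 next to one another on chromosome 8 and Gsta3 and Gsta1 next to one another on chromosome 9, among the protein-coding genes of RefSeq. The measured genes around them were followed as a description, chosen after the cluster order was known. Gsta3l1, an alpha class relative in the chromosome 9 cluster, differed by -0.02 ± 0.06 (SE, limma adjusted p = 0.95) from a dim vehicle level of 3.79. Tmem14a, a membrane protein gene between Gsta3l1 and Gsta3, differed by -0.05 ± 0.09 (SE, limma adjusted p = 0.885). On chromosome 8 Cilk1, a kinase gene beside Gsta4, differed by 0.25 ± 0.09 (SE, limma adjusted p = 0.189). Of the 7 measured neighbours outside the 9 genes 0 passed limma, and 1, Cilk1, had an unadjusted p under 0.05, beside 3.32% higher and 3.11% lower past the adjusted threshold, and 9.62% higher and 10.2% lower at the unadjusted p, of all 14217 genes by their brightest probe set. Gsta3l1 is dim in both groups, but how much of the signal of any alpha class probe set comes from a related transcript was not tested.

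Within each group different samples were high or low for different members. Vehicle 5 was the lowest vehicle sample for 4 of the 8 probe sets (Gsta3, Gsta4, Mgst1 and Mgst2) and vehicle 4 the highest for 4 (Gsta3, Mgst1, Mgst2 and Mgst3). The lowest I3C sample was I3C 4 for 4 probe sets and I3C 3 for 3. The widest deviation from a group mean was that of vehicle 5 in Gsta3, at -0.65, and the next that of vehicle 2 in the shared probe set, at -0.40.

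A measure of RNA quality moved with the groups. For GAPDH, whose control probe sets sit toward the 3' or the 5' end of the transcript, the 3' value exceeded the 5' value by 0.45 ± 0.12 in vehicle arrays and by 0.23 ± 0.05 in I3C arrays (SD, n = 5 each), without overlap. For beta-actin the excess was 1.59 ± 0.12 and 1.40 ± 0.14 (SD, n = 5 each). With the GAPDH difference in the model Gsta3 differed by 1.15 ± 0.20 (SE, limma adjusted p = 0.0219), the shared probe set by 1.14 ± 0.19 (SE, limma adjusted p = 0.0166), Gsta4 by 0.98 ± 0.13 (SE, limma adjusted p = 0.00567), Mgst2 by 0.75 ± 0.15 (SE, limma adjusted p = 0.034) and Mgst3 by -0.72 ± 0.14 (SE, limma adjusted p = 0.0358). All 5 calls therefore held at that setting, while the probe sets called over the whole array went from 772 higher and 715 lower to 171 and 184. Without vehicle 5 they were 905 and 1180. Array medians lay between 6.22 and 6.30.

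Markers of liver cell types were measured beside the members. The 9 measured hepatocyte markers were all above the array median, and their summed level lay between 17.31 and 17.34 (log2) in vehicle and between 17.28 and 17.36 in I3C samples, with 1 marker, Apoa1, higher (0.38 ± 0.07, SE) and 0 lower. The summed level of the 7 measured macrophage markers lay between 12.78 and 13.05 in vehicle and between 12.28 and 12.69 in I3C samples, without overlap. All 7 differences were negative, from -0.22 for Cd163 to -0.50 for Adgre1, with a median of -0.35. Only 1 of the 7, C1qa, passed the test (-0.37 ± 0.08, SE). Both calls ended with the GAPDH covariate, at 0.42 ± 0.12 for Apoa1 (SE, limma adjusted p = 0.126) and -0.33 ± 0.13 for C1qa (SE, limma adjusted p = 0.287), and that of C1qa also without vehicle 1 or I3C 5. None of the 7 is a glutathione transferase, and the part of macrophages in the results was not tested. Summed levels of the cholangiocyte, stellate, endothelial, lymphocyte, and erythroid and neutrophil markers overlapped between the groups, with 0 to 1 marker called in either direction in each. In whole liver RNA, fewer cells of a type and less RNA per cell cannot be told apart.

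The genes most like Gsta3 were taken as those with the smallest root mean square distance over the 10 arrays, each gene relative to its own vehicle mean, among 14210 other genes. Akr1c15, an aldo-keto reductase, was nearest at 0.26 (log2). Gadd45a, a stress-inducible regulator of growth arrest, followed at 0.28. Slc3a2, the heavy chain of amino acid transporters, stood at 0.29, Il1r1, the interleukin receptor, at 0.30, and Abcc3, an exporter of organic anions, also at 0.30. Among the members Gsta4 was nearest to Gsta3, at 0.45, which would be 26th among those genes, and Mgst2 stood at 0.54. The measure weighs the size of a change as well as its pattern, and covers 2 groups of 5.

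The rest of glutathione conjugation was followed through 6 lists with 73 measured genes. Of these genes 24 rose and 5 fell, beside 3.32% and 3.11% of all 14217 genes. At an unadjusted p under 0.05 the lists held 29 higher and 10 lower, beside 9.62% and 10.2% of all genes, which are the shares for the unadjusted counts of each list too. The median difference was 0.11, and over all genes it was -0.0039. With the GAPDH difference in the model 11 rose and 2 fell. The number that fell was 2 without vehicle 1, vehicle 2, I3C 4 or I3C 5, and 3 without vehicle 3, I3C 1 or I3C 2.

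Of 14 other soluble glutathione transferases, of the mu, theta, pi, omega, zeta and sigma classes, 6 rose and 0 fell in limma (8 and 0 at an unadjusted p under 0.05), with a median difference of 0.26. Gstm3 rose by 1.20 ± 0.18 (SE), Gstt3 by 1.07 ± 0.09, Gstm1, a main mu class enzyme of liver, by 1.01 ± 0.08 and Gstm2 by 0.77 ± 0.10. Of the 3 other MAPEG proteins, which take part in making prostaglandins or leukotrienes, 0 passed limma and 0 had an unadjusted p under 0.05. Ltc4s differed by 0.06 ± 0.13 (SE, limma adjusted p = 0.893) and Ptges by -0.09 ± 0.09 (SE, limma adjusted p = 0.719), and the sign of both turned under some alternatives.

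Genes that make or handle glutathione moved in both directions. Of 20 genes of glutathione synthesis and reduction 6 rose and 2 fell, with a median of 0.18. Slc3a2 rose by 1.40 ± 0.13 (SE) and Slc7a11, its cystine-importing partner, by 0.74 ± 0.12 from a dim vehicle level of 4.62. Gsr, glutathione reductase, rose by 0.89 ± 0.08, and Glrx, a glutaredoxin, by 0.82 ± 0.09. The fallen genes, named after their values were seen, were Gpx1, a glutathione peroxidase (-0.43 ± 0.06, SE), and Cdo1, which diverts cysteine to sulfinate (-0.33 ± 0.07, SE). Both calls ended with the GAPDH covariate, at -0.48 ± 0.11 for Gpx1 (SE, limma adjusted p = 0.0608) and -0.35 ± 0.12 for Cdo1 (SE, limma adjusted p = 0.225). That of Cdo1 also ended without vehicle 1, vehicle 2, I3C 1, I3C 4 or I3C 5, at limma adjusted p up to 0.0586. Of 5 genes of NADPH supply 2 rose and 0 fell (3 and 0 at an unadjusted p under 0.05), with Me1, malic enzyme, at 1.89 ± 0.12 and Pgd of the pentose phosphate pathway at 0.63 ± 0.13 (SE). The call of Pgd ended with the GAPDH covariate, with the beta-actin covariate (0.57 ± 0.17, SE, limma adjusted p = 0.127) and without moderation of the variance (limma adjusted p = 0.0771).

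Downstream of the transferases, conjugates are exported and trimmed to mercapturic acids. Of 17 such genes 5 rose and 3 fell, with a median of -0.04. Abcc3, an exporter of the sinusoidal membrane, rose by 1.93 ± 0.17 (SE), Abcc4, another, by 0.84 ± 0.16, and Nat8, which acetylates cysteine conjugates, by 1.34 ± 0.21. Anpep, an aminopeptidase that cleaves cysteinylglycine conjugates, fell (-0.76 ± 0.07, SE, limma adjusted p = 5.74e-05). The others that fell, named after their values were seen, were the aminoacylases Acy3 (-0.50 ± 0.11, SE) and Acy1 (-0.30 ± 0.07, SE), which remove the acetyl group again. The call of Acy1 ended with any array but vehicle 4 and I3C 3 left out, and that of Acy3 without vehicle 1, 2 or 3 or I3C 2, 4 or 5. With the GAPDH covariate Acy1 was at -0.25 ± 0.12 (SE, limma adjusted p = 0.377) and Acy3 at -0.86 ± 0.14 (SE, limma adjusted p = 0.0129). With the beta-actin covariate the calls of Cdo1 (limma adjusted p = 0.092), Acy1 (limma adjusted p = 0.0962), Acy3 (limma adjusted p = 0.208) and the hepatocyte marker Apoa1 (limma adjusted p = 0.134) ended. Without moderation the calls of Abcc4 (limma adjusted p = 0.0703) and Acy1 (limma adjusted p = 0.0691) ended. Those of Acy3 (limma adjusted p = 0.0853) and the macrophage marker C1qa (limma adjusted p = 0.0543) ended too. With the replicate number as a block, the calls of Cdo1, Acy1 and C1qa ended, at limma adjusted p of 0.0658, 0.0657 and 0.0731. That of Acy1 also ended when array distributions were equalised again (limma adjusted p = 0.0656).

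Of 14 transcription factors and partners that control glutathione transferases 5 rose and 0 fell in limma (5 and 3 at an unadjusted p under 0.05), with a median of 0.07. Nr1i3, the receptor CAR, rose by 1.32 ± 0.20 (SE), Nfe2l2, which encodes NRF2, by 1.05 ± 0.10, Ahr, the aryl hydrocarbon receptor, by 1.02 ± 0.13 and Mafk, a partner of NRF2, by 0.82 ± 0.10. With the GAPDH difference in the model 7 calls of the rises named in these lists ended. The differences of Gstm3 (1.24 ± 0.30, SE, limma adjusted p = 0.0861), Nat8 (1.38 ± 0.36, limma adjusted p = 0.105) and Pgd (0.91 ± 0.20, limma adjusted p = 0.0506) were no smaller than without it, and their SEs were wider. That of Nr1i3 was 1.18 ± 0.33 (SE, limma adjusted p = 0.13), also with a wider SE. Ahr, at 0.65 ± 0.18 (SE, limma adjusted p = 0.118), Mafk, at 0.64 ± 0.16 (SE, limma adjusted p = 0.0889), and Abcc4, at 0.55 ± 0.26 (SE, limma adjusted p = 0.348), had smaller differences as well as wider SEs. The calls of Nfe2l2, Gstm1, Gstm2, Gstt3, Slc3a2, Slc7a11, Gsr, Glrx, Me1, Abcc3 and Anpep held. As markers of the dose, Cyp1a1 rose by 8.38 ± 0.15 (SE), Cyp1a2 by 1.11 ± 0.11 and Nqo1, a quinone reductase driven by both sensors, by 2.85 ± 0.09. The 3 rises of alpha class probe sets lay between that of Mgst2 and that of Nqo1.

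**Figure D4:**
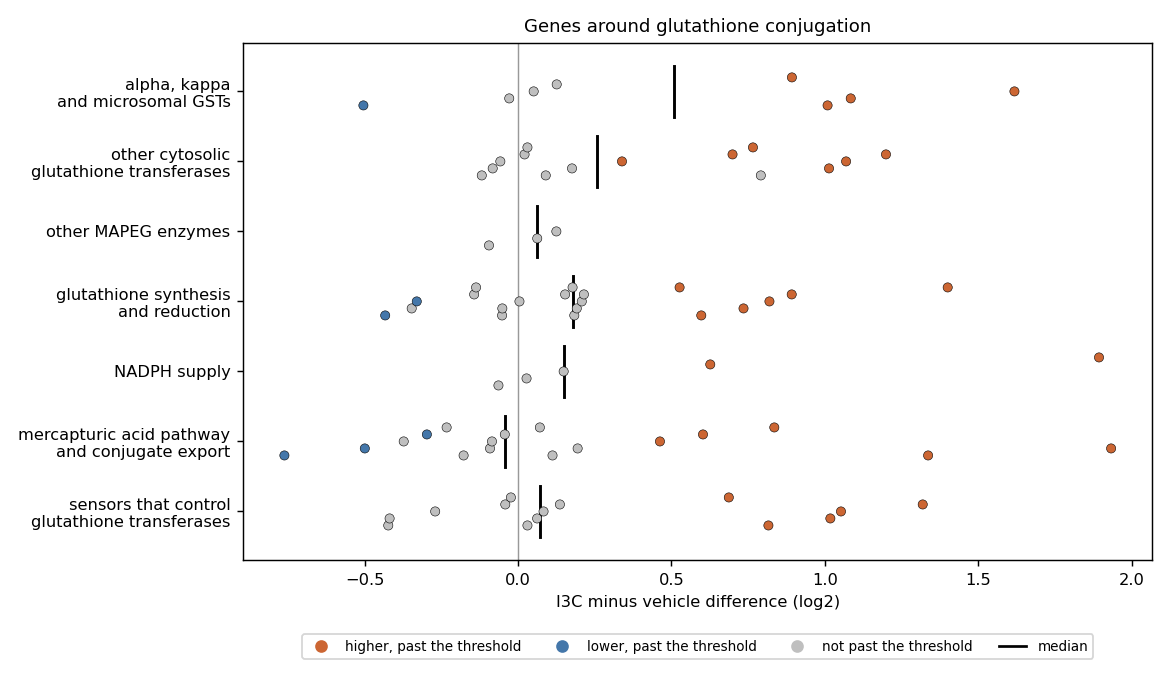
I3C minus vehicle difference (log2) of the 8 member probe sets and of 73 genes in 6 lists around glutathione conjugation, each point 1 gene or probe set. Orange points rose and blue points fell past the limma threshold, grey points did not pass, and black bars are medians. The lists of other soluble transferases, other MAPEG, NADPH supply and sensors hold no gene that fell past the threshold. At an unadjusted limma p under 0.05, 3 sensors were lower. The mercapturic acid list holds both the largest rise, Abcc3 at 1.93, and the deepest fall, Anpep at -0.76.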

How the data were processed

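The deposited table holds the authors' log2 expression values, made with RMA per the submitters' processing notes; its version is not given in the sources used here. Samples of 5 ug RNA were amplified from the 3' end in 1 cycle, per the labels' protocols. RMA equalises array distributions, which removes a shift common to all genes and can shrink the folds of bright probe sets. Names come from the platform annotation dated 2016, with symbols updated by Entrez ID from a RefSeq table on GRCr8: 20826 carry 1 gene, 436 several and 9780 none here. The 57 control probe sets served only as quality measures. Genes other than members were followed through their brightest probe set. Of 80 listed genes around glutathione conjugation 73 were measured alone.

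The test of I3C against vehicle was limma 3.58.1 under R 4.3.3 (lmFit and eBayes, no trend, with 4.60 prior degrees of freedom); it was two-sided, and p-values were adjusted by Benjamini-Hochberg over 31042 probe sets. On simulated arrays with these means and spreads over 31042 probe sets, the comparison of I3C with vehicle recovered 83.6% of 67 probe sets changed 1.5-fold and 98.5% of 67 changed 2-fold, and called 9 unchanged ones. The simulated probe sets varied independently, so variation shared across an array was not simulated. These figures are therefore not the error rate of the real arrays. Precision is limited by having 5 arrays per group. Members and lists were chosen with earlier results of these data known, and the 9 pairs of members after their values were seen. Named genes are all members, up to 4 called genes of each list by size or its 2 brightest where fewer than 2 passed, Cyp1a1, Cyp1a2, Nqo1 and the 5 genes nearest to Gsta3. Gpx1, Cdo1, Acy1, Acy3, Apoa1, C1qa and the neighbours Gsta3l1, Tmem14a and Cilk1 fall outside this rule and were chosen after their values were seen. The planned comparison of probe sets of 1 gene could not be made, since each member has 1. Alternatives are given in the closing section.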

Additional observations from a re-analysis of the deposited data

How the results depend on the processing

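All counts of member probe sets stayed at 4 higher and 1 lower, except that 0 were lower with the beta-actin difference as a covariate and 5 were higher without moderation of the variance. Sizes ranged from 1.15 to 1.86 for Gsta3, 0.98 to 1.14 for Gsta4, 0.91 to 1.14 for Gsta2 and Gsta5, 0.75 to 1.03 for Mgst2 and -0.72 to -0.46 for Mgst3 over at most 20 alternatives. With 1 array left out, the called probe sets of the whole array ran from 548 to 905 higher and from 477 to 1180 lower, and the list genes from 22 to 25 higher and from 2 to 6 lower. Probe sets called higher numbered 171 with the GAPDH covariate, 418 with the beta-actin covariate and 374 at a threshold of 0.01, and probe sets called lower 184, 334 and 272, besides 1122 with array weights and 380 without moderation. List genes called numbered 11 higher with the GAPDH covariate. List genes called lower were 2 with the GAPDH covariate, the beta-actin covariate or the threshold of 0.01, 3 without moderation or with the replicate block, and 8 with brighter probe sets alone or with all probe sets of a gene averaged. The sign turned for Mgst1 (0.0013) and Ltc4s (-0.094) with the beta-actin covariate and for Ptges with the GAPDH covariate (0.18); with 1 array left out Ltc4s ran from -0.022 (without vehicle 4) to 0.17, and was -0.0044 without I3C 1. Gsta4 minus the probe set of Gsta2 and Gsta5 turned to -0.16 with the GAPDH covariate (a setting added once the values were known). The cause was not tested.

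Replicate numbers are shared between the groups. The deviations of same-numbered samples correlated at -0.28 to 0.22, so a pairing was not shown, though so few correlations cannot exclude one. With the replicate block 542 probe sets were higher and 490 lower, and all 8 members kept their side of the threshold.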
